A study of Mus musculus with 159 samples.

Results

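Thalamic and cortical identity genes are genes whose transcripts mark thalamus or cerebral cortex in the mouse brain, and 10 of them were followed through prefrontal cortex (PFC) and liver of mice that drank ethanol or received lipopolysaccharide (LPS). The members are Slc17a6, Tcf7l2, Prkcd, Rgs16, Ntng1 and Tnnt1 (6 thalamic members), Calb2 (1 shared member) and Tbr1, Fezf2 and Neurod2 (3 cortical members). They were selected on these same PFC arrays, for their spread between samples and their treated and control values in the 4 PFC sets, as a measure of how the dissected tissue varied. The PFC values below are therefore a description with no test. They are 10 of the 9704 genes named in the value table and take up 13 of its 13983 probes, and 12 of these probes, covering all 10 genes, had values in every PFC set. Only Tcf7l2, Prkcd, Rgs16 and Tnnt1 had liver values.

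All mice were female C57BL/6J, labelled 2.5 months old (the study's methods give older mice at the start of the Chronic and CI experiments than of DID and LPS), and each array held the RNA of 1 mouse and 1 tissue. Chronic mice had a bottle of 20% ethanol beside water at all times, CI mice had it every other day, and DID mice had it in place of water for a few hours of the dark phase. LPS mice received 2 injections of 1 mg/kg and were killed 1 week after the last. Each of these 4 treatments had controls of its own, labelled water (the study's methods name saline injections for the LPS set). There were 10 arrays in every group except the 9 of Chronic PFC controls, giving 79 PFC and 80 liver arrays. By the methods, the PFC was cut as the front end of the cortex after the olfactory bulbs had been taken off, and DID mice lived on a reversed light cycle and were killed in their dark phase. Values are log2 intensities, normalized within each tissue and set, so levels are not set against each other between sets except where this is said.

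The thalamus relays sensory and motor signals to the cortex, and its relay neurons release glutamate that they load into vesicles with VGLUT2, the product of Slc17a6, whereas most cortical pyramidal neurons use VGLUT1, the product of Slc17a7. Tcf7l2, a transcription factor of the Wnt pathway, stays on in the adult thalamus, and Tbr1, Fezf2 and Neurod2 are transcription factors that set the identity of cortical glutamatergic neurons. In bulk tissue, fewer cells of a type and less RNA per cell cannot be told apart.

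The stretches of 250 bases before a transcription start are given for 2 thalamic and 2 cortical members, because these genes went opposite ways on the arrays described next (RefSeq, GRCm38.p6, upstream-most listed start, 5′ to 3′ on the gene's strand). Capitals mark CTTTGA or its reverse complement TCAAAG, the core letters of TCF/LEF factors, and CAGATG or its reverse complement CATCTG, an E-box of NeuroD factors. Both strands were searched, and no stretch held both motifs.
Slc17a6, chr7:51621580-51621829, plus strand: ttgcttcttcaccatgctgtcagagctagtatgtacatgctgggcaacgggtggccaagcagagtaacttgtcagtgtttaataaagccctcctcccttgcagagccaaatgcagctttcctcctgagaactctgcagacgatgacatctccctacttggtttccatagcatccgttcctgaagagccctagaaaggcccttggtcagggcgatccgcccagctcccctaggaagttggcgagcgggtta
Prkcd, chr14:30626209-30626458, minus strand: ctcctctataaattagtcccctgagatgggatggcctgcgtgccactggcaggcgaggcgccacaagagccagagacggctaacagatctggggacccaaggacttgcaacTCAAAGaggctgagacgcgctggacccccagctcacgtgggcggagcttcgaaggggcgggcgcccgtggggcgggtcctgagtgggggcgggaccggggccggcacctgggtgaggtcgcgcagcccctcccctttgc
Tbr1, chr2:61804203-61804452, plus strand: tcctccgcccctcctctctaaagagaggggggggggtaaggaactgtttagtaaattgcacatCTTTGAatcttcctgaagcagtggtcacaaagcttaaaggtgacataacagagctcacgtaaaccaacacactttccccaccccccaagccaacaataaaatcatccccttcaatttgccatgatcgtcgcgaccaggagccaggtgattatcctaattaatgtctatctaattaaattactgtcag
Neurod2, chr11:98329646-98329895, minus strand: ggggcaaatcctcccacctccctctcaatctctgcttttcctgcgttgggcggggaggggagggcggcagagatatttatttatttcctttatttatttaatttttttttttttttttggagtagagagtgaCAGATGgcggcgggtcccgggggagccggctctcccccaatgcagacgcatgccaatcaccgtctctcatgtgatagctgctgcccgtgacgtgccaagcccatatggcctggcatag

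The RefSeq table gave 12 such stretches for 9 of the 10 members. CTTTGA was found in 3 of them, 139 bases before the start of Prkcd, 187 before that of Tbr1 and 191 before that of Fezf2, while 13.8% of all 32851 stretches of this length hold it. CAGATG was found in 2, 118 bases before the start of Neurod2 and 205 before a second start of Slc17a6, against 14.4% of all stretches. These letters do not separate the thalamic from the cortical members.

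In 77 of the 79 PFC arrays the tissue carried cortical transcripts as labelled, with Slc17a7 at 11.98 to 13.34 (median 12.56, over the 4 separately normalized sets) and Tbr1 between 9.35 and 10.86. The other 2 arrays, numbers 5 and 6 of the CI controls, stood apart from all the rest. Slc17a7 read 9.55 and 9.19 on them, against 11.98 to 12.80 on the other 18 CI arrays. Array 5 lay above the highest of the other 18 arrays for 24.4% of probes and below the lowest for 24.4%, and array 6 for 23.2% and 23.2%. The 2 arrays correlated at 0.995 with each other and at 0.932 to 0.952 with the other 18, which correlated at 0.976 to 0.996 among themselves. The SD of their difference over probes was 0.135, against 0.118 to 0.282 between other arrays of the set. They are labelled as separate samples, and whether both came from 1 RNA was not tested.

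All 6 thalamic members were higher on each of these 2 arrays than on any of the other 18 (17 for Ntng1, which had 1 blank value). Slc17a6 read 13.29 and 13.12 on arrays 5 and 6, against 9.56 to 10.10 on the other 8 controls. Tcf7l2 read 10.44 and 10.65, against 8.20 to 8.45. Prkcd, a protein kinase C isoform of thalamic relay neurons, read 10.93 and 10.98, against 8.35 to 8.86. These 3 members thus sat more than 1 log2 unit clear of every other control, and the remaining thalamic members followed them. Rgs16, a brake on G protein signaling, read 9.65 and 9.67 against 8.30 to 8.53. Ntng1, the netrin-G1 adhesion protein of thalamocortical axons, read 10.96 and 11.20 against 9.08 to 9.58, and its second probe 9.13 and 9.48 against 8.19 to 8.55. Tnnt1, a troponin T that marks thalamic neurons in the mouse brain, read 10.23 and 10.30 against 8.29 to 9.07.

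The 3 cortical members lay below every one of the other 18 arrays. Tbr1, which specifies deep-layer neurons, read 7.90 and 7.89 on arrays 5 and 6, against 9.56 to 10.34 on the other 8 controls. Fezf2, which specifies neurons that project below the cortex, read 7.86 and 7.89 against 8.96 to 9.53. Neurod2, a bHLH factor of differentiating cortical neurons, read 8.02 and 8.01 against 8.37 to 8.77. The values of all 3 on these arrays were close to the lowest the CI PFC set holds (7.78). Calb2, which encodes calretinin and is made in midline thalamus, in some cortical interneurons and in neurons of the olfactory bulb, read 12.95 and 12.93 against 9.78 to 11.41.

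**Figure D1:**
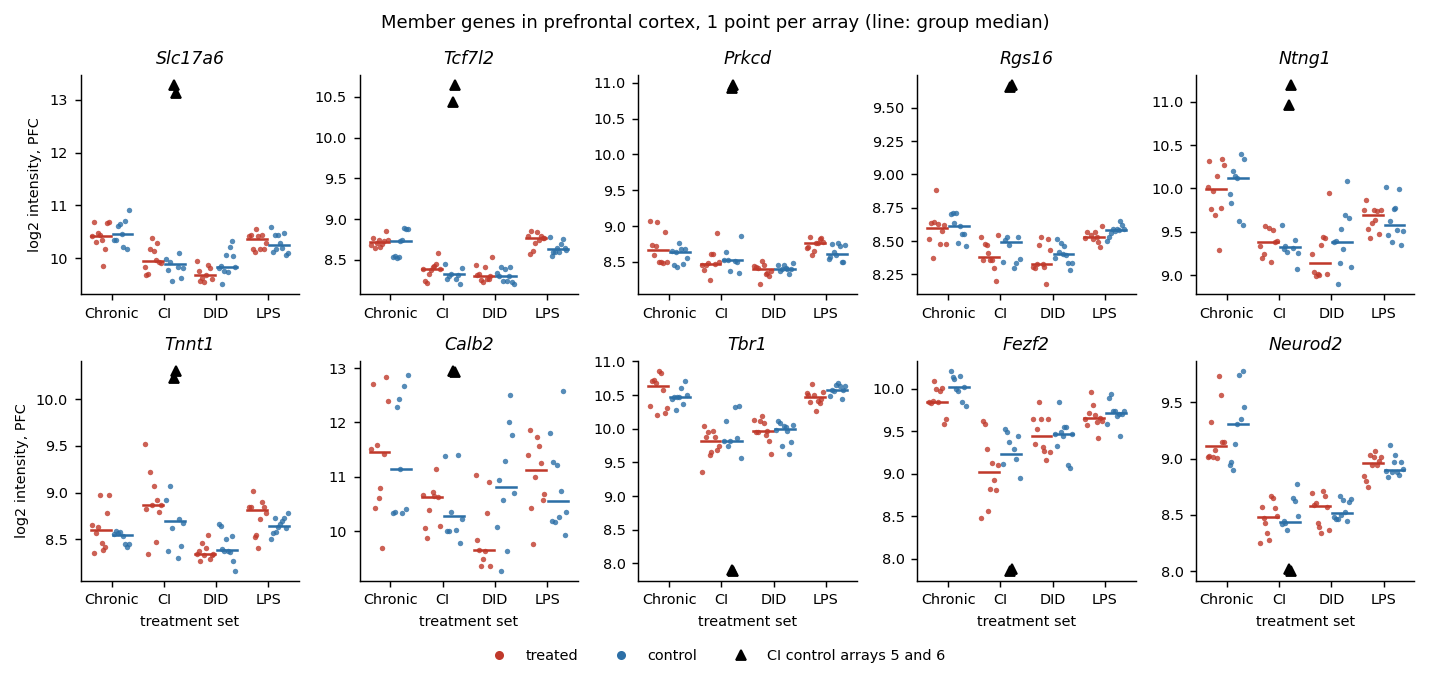
Log2 intensity of the 10 members in PFC, 1 point per array, by treatment set on the x axis, with treated arrays left of their controls and a line at each group's median. The triangles are CI control arrays 5 and 6, which lie above every other CI array for the 6 thalamic members and Calb2 and below every other CI array for Tbr1, Fezf2 and Neurod2.

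Other genes of thalamus and cortex went the same way on arrays 5 and 6, and some lists were mixed. Of a list of further thalamic genes, 6 of 18 were measured and all 6 were above the other 18 arrays on both, including Rora (10.21 and 10.48, against 8.91 to 9.35) and Zfhx3 (10.30 and 10.61, against 8.63 to 9.56). Of the other genes of cortical excitatory neurons, 9 of the 10 measured were below all 18 on both, including Camk2a (10.22 and 9.91, against 12.19 to 12.99) and Mef2c (8.37 and 8.42, against 10.15 to 11.91), while Nrn1 was inside their range. All 8 measured oligodendrocyte genes were above all 18 on both, as were the 4 measured genes of meninges and vessel fibroblasts and the 2 of choroid plexus. Ttr, the transthyretin that choroid plexus secretes, read 14.76 and 14.84 against 8.09 to 10.78, although in the other PFC sets it reached 14.87. Of the hippocampal genes, Prox1 and C1ql2 were above and Wfs1 below all 18 on both arrays. Lower-layer cortical genes were below all 18 in 8 and 6 of 12 cases on arrays 5 and 6, upper-layer genes in 3 and 3 of 6, and striatal projection neuron genes in 7 and 6 of 12. Of the olfactory bulb genes, Cdhr1 (8.27 and 8.17, against 8.51 to 10.49) and Sp8 (7.94 and 7.98, against 8.01 to 8.50) were below all 18 and Pbx3 was not. Cortical interneuron genes were above all 18 in 2 and 1 of 9 cases on arrays 5 and 6 and below in 5 and 5. Astrocyte genes were above in 3 and 2 of 6 cases and below in 2 and 2. Microglia genes were above in 1 and 0 of 7 cases and below in 2 and 1. Blood genes were above in 1 and 2 of 3 cases. Ctss of microglia and Hbb-bt of blood were blank on array 6. No habenula gene of the list was measured. The part of the dissection in these values was not tested.

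The CI differences changed when these 2 of the 10 controls were left out. The thalamic members averaged lower in the 10 CI treated arrays than in the 10 controls, by 0.07 to 0.51 log2 units (median -0.34, against -0.001 over all 11269 probes). Without arrays 5 and 6, 4 of the 6 were higher and the median was 0.06. For Slc17a6 the treated arrays lay between 9.68 and 10.38 (median 9.96) and the controls between 9.56 and 13.29 (median 9.88). The difference of means was -0.50 (SE 0.43) with all arrays and 0.17 (SE 0.09) without the 2. For Prkcd it was -0.51 (SE 0.31) and -0.02 (SE 0.07), for Tcf7l2 -0.38 (SE 0.28) and 0.07 (SE 0.04), for Ntng1 -0.30 (SE 0.24) and 0.05 (SE 0.07), and for Rgs16 -0.27 (SE 0.16) and -0.02 (SE 0.05). The control medians moved less than the control means, since extreme values pull a median less. For Rgs16 the control median was 8.49 with the 2 arrays and 8.42 without them, against 8.38 in treated arrays. For Tnnt1 the medians were 8.87 in treated arrays and 8.70 in all controls.

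The cortical members turned the other way. Tbr1 ranged from 9.35 to 10.04 (median 9.81) in CI treated arrays and from 7.89 to 10.34 (median 9.82) in controls, and its difference was 0.24 (SE 0.27) with all arrays and -0.17 (SE 0.10) without the 2. Fezf2 ranged from 8.48 to 9.63 (median 9.02) in treated arrays and from 7.86 to 9.53 (median 9.23) in controls, with a difference of 0.02 (SE 0.22) and of -0.26 (SE 0.14) without the 2. Neurod2 gave 0.05 (SE 0.09) and -0.06 (SE 0.06). In all, 8 of the 10 members changed sign when the 2 arrays were left out, the exceptions being Prkcd and Rgs16, whose differences came to -0.02. Tnnt1 gave -0.07 (SE 0.24) with all arrays and 0.25 (SE 0.13) without. Calb2 gave -0.43 (SE 0.39) and 0.08 (SE 0.23), and its second probe -0.49 and -0.05, with no change of sign. Among the other thalamic genes on the list, all 6 were lower in CI treated arrays with all controls in, and 3 were lower without the 2 (median -0.20 and 0.01).

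**Figure D2:**
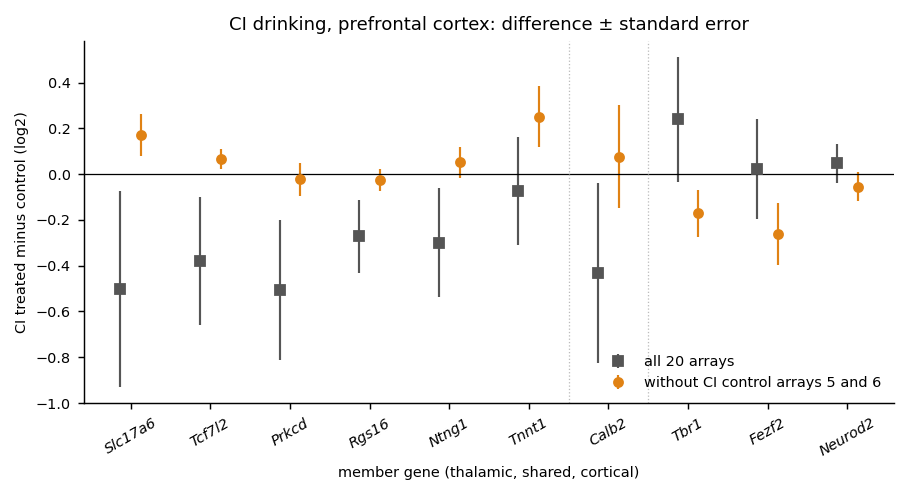
Difference of CI treated minus CI control PFC arrays for each member (log2, y axis; bars are standard errors), with all 20 arrays (squares) and without CI control arrays 5 and 6 (circles). All 6 thalamic members and Calb2 are below 0 with all arrays, and 8 of the 10 members change sides without the 2.

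The PFC contrasts were used to select the members, so none of them is called changed in PFC in any set, and the shares over all probes are given for scale alone. A probe is called DE (differentially expressed) where limma gave it an unadjusted p under 0.05, the study's threshold. Over all probes 2.84% were DE and higher and 2.37% DE and lower in CI treated PFC, and 2.64% and 3.33% without the 2 arrays. At a Benjamini-Hochberg adjusted p under 0.05 limma called 0% of probes both with and without them.

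In the Chronic set the differences ran from -0.16 to 0.11, with 4 members higher and 6 lower, and the medians of the thalamic and cortical members were 0.004 and -0.08 (0.003 over all probes). Fezf2 lay at 9.59 to 10.09 (median 9.85) in treated arrays and 9.80 to 10.21 (median 10.02) in controls, and its groups overlapped (difference -0.16, SE 0.07). Calb2 spanned 9.70 to 12.84 in treated arrays and 10.33 to 12.87 in controls (difference -0.03, SE 0.45). Several members divided the Chronic controls by array number. Tcf7l2 read 8.53 to 8.55 on control arrays 1 to 4 and 8.73 to 8.90 on arrays 5 to 9. Its treated arrays, at 8.65 to 8.86, were not split by number. Neurod2 was likewise lower on control arrays 1 to 4 (8.90 to 9.13, against 9.30 to 9.78). Rgs16 (8.64 to 8.71, against 8.46 to 8.61) and Tnnt1 (8.55 to 8.59, against 8.42 to 8.53) were higher on them. The cause of this division was not tested. Prkcd and Tnnt1 reached higher in some Chronic treated mice, to 9.07 and 8.97, than in any control with a value (8.77 and 8.59). Tnnt1 was blank on Chronic control array 5. In Chronic PFC 2.61% of probes were DE and higher, 1.76% DE and lower, and 0% passed the adjusted threshold.

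In the LPS set the differences ran from -0.12 to 0.17, the highest being that of Calb2 (SE 0.30). Prkcd ranged from 8.59 to 8.85 (median 8.77) in LPS arrays and from 8.49 to 8.76 (median 8.61) in controls, with a difference of 0.12 (SE 0.04). Tcf7l2 ranged from 8.57 to 8.86 (median 8.77) against 8.54 to 8.78 (median 8.63), with a difference of 0.10 (SE 0.04). Tbr1 ranged from 10.27 to 10.67 (median 10.47) against 10.44 to 10.68 (median 10.57), with a difference of -0.12 (SE 0.04), and 1 of its control values was blank. All 3 pairs of groups overlapped. Thalamic members were higher in 5 of 6 cases (median 0.06) and cortical members lower in 2 of 3 (median -0.04), against a median of -0.001 over all probes. In LPS PFC 4.61% of probes were DE and higher, 4.97% DE and lower, and 0.113% had an adjusted p under 0.05. Genes of meninges and vessel fibroblasts were higher in LPS arrays in 6 of 6 cases, 4 of them DE (median 0.21), and Dcn (0.41) and Mgp (0.46) passed an adjusted p under 0.05 in limma. The 3 measured blood genes were all higher and DE (median 0.42), none of them past the adjusted threshold. The part of these tissues in the members' LPS values was not tested.

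In the DID set Calb2 had the largest difference of any member in the 4 PFC sets. It read 9.35 to 11.03 (median 9.65) in 9 DID treated arrays and 9.27 to 12.50 (median 10.82) in 10 controls, a difference of -0.92 (SE 0.36), and its second probe gave -0.62 (SE 0.25). The 4 highest controls (12.50, 12.01, 11.77 and 11.29) were above every treated array, and the lowest control was below every treated array. Slc17a6 read 9.56 to 9.94 (median 9.69) in 9 treated arrays and 9.51 to 10.33 (median 9.84) in controls (difference -0.20, SE 0.09). Ntng1 gave -0.17 (SE 0.13), and -0.10 without control array 8, and the other members lay between -0.06 and 0.04. In DID PFC 1.84% of probes were DE and higher, 2.04% DE and lower, and 0% passed the adjusted threshold.

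The DID difference in Calb2 was computed without a value for treated array 10. The authors had blanked outlying single values, and on that array both Calb2 probes and Slc17a6 were blank, 3 of the 10 blank values that the members had in PFC. Ntng1 was not blanked and had its highest treated value there (9.95, against 8.99 to 9.44 on the other 9). Of the 10 genes most like Calb2 (below), 8 were blank on the array and the other 2 were the highest of their group, with Cdhr1 at 11.39 against 8.21 to 9.98. Over all probes 2.41% were blank on this array, the highest share of any PFC array (median 0.38%). The difference in Ntng1 was -0.25 without array 10, and that in Cdhr1, with it, was -0.49 (SE 0.42). CI treated array 5 was blank in the same way for both Calb2 probes, Ntng1 and 9 of the 10 genes, and Slc17a6 had its highest treated value there (10.38). By contrast, no member value was blank on CI control arrays 5 and 6. How much the blanked values moved these differences was not tested.

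The members varied between arrays to very different degrees. Spread is given as the SD within groups, pooled over treated and control arrays, with its percentile among all probes of the set. Calb2 was among the 9 most variable probes of every set (SD 1.08 in Chronic, 0.92 in CI, 0.88 in DID and 0.77 in LPS, against a median probe at 0.125, 0.116, 0.094 and 0.084). Without CI control arrays 5 and 6 its SD in CI was 0.53, and 11 probes were more variable. Its 20 LPS arrays spanned 7.07-fold and its 19 DID arrays 9.38-fold. Outside CI, Ntng1 and Slc17a6 varied most among the thalamic members. They lay at percentiles 96.8 and 92.2 in Chronic, 98.8 and 94.5 in DID and 98.9 and 97.7 in LPS. Of the cortical members, Neurod2 in Chronic (percentile 95.7) and Fezf2 in DID (96.2) lay above Slc17a6.

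Of the other thalamic members, Tnnt1 was among the more variable probes in LPS (percentile 95.3) and stood lower in Chronic and DID. Tcf7l2, Rgs16 and Prkcd were not unusual in these sets. Tcf7l2 lay at percentiles 46.9, 43.9 and 49.6 in Chronic, DID and LPS, Rgs16 at 46.6, 51.3 and 4.65, and Prkcd at 78.7, 29.0 and 62.3. In CI these 3 moved to percentiles 99.6, 96.8 and 99.8, and without arrays 5 and 6 they stood at 44.0, 54.8 and 89.4. Slc17a6 had an SD of 1.03 in CI, exceeded by 1 probe of 11269, and of 0.21 without the 2 arrays. Among the cortical members Fezf2 stayed variable in CI without them (percentile 99.0, SD 0.32), with Tbr1 at 97.2 and Neurod2 at 82.1, and Tnnt1 did so too (percentile 98.9, SD 0.31).

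To set the groups of members against each other, each array was given the mean deviation of the 6 thalamic and of the 3 cortical members from their set medians. CI control arrays 5 and 6 stood at 2.01 and 2.08 for the thalamic and -1.21 and -1.21 for the cortical members. The other 77 arrays ran from -0.30 to 0.24 and from -0.44 to 0.38. Across those 77 arrays, with group means removed, the 2 means correlated at -0.71 (Spearman -0.66), and within sets at -0.83 in Chronic, -0.69 in CI without the 2 arrays, -0.70 in DID and -0.56 in LPS. With arrays 5 and 6 in, the value over 79 arrays was -0.90 (Spearman -0.73). These correlations are descriptive, since the arrays of a set share a normalization that ties the values of all probes on an array together.

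**Figure D3:**
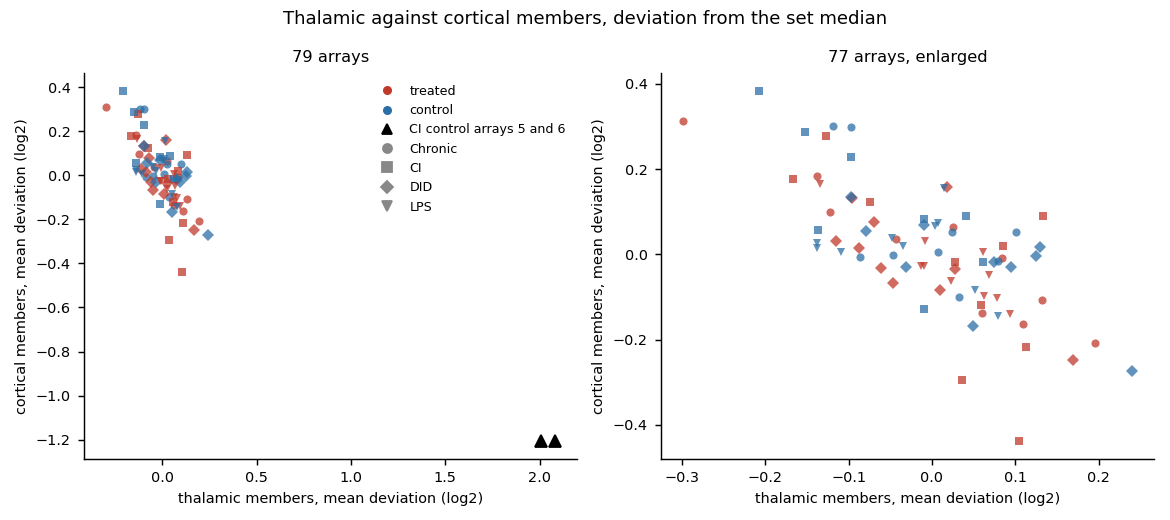
Mean deviation from the set median of the 6 thalamic members (x axis, log2) and the 3 cortical members (y axis, log2), 1 point per PFC array, for all 79 arrays (left) and enlarged for 77 arrays (right). CI control arrays 5 and 6 lie at 2.01 and 2.08 on the x axis and near -1.2 on the y axis, and the other 77 arrays within 0.44 of 0 on both axes.

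The thalamic members did not vary as 1 block. Over the 77 arrays Slc17a6 followed Ntng1 (Pearson 0.85, Spearman 0.82) and Calb2 (0.84 and 0.82), and Ntng1 followed Calb2 (0.83 and 0.79). In each of the 4 sets, with the 2 arrays left out of CI, Slc17a6 and Calb2 correlated at 0.69 to 0.94 and Slc17a6 and Ntng1 at 0.77 to 0.92. Prkcd and Rgs16 did not follow Slc17a6 (0.01 and -0.20), Tnnt1 did so weakly (0.21) and Tcf7l2 a little more (0.28). Prkcd and Tcf7l2 correlated at 0.27 with each other. On CI control arrays 5 and 6 all 6 were high together, so with those arrays in, Slc17a6 correlated at 0.92 with Tcf7l2, 0.87 with Prkcd and 0.80 with Rgs16 over 79 arrays, values that rest on the 2 arrays. The Spearman values were 0.52, 0.30 and 0.17 over 79 arrays and 0.29, -0.01 and -0.28 over 77, so they too depended on the 2 arrays. Among the cortical members Tbr1 followed Fezf2 (0.53) and Neurod2 (0.37) over 77 arrays, while Fezf2 and Neurod2 were unrelated (0.09). Fezf2 ran against Slc17a6 (-0.51), Ntng1 (-0.54) and Calb2 (-0.54).

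The genes most like Calb2 over the 77 arrays, of 7726 genes measured in all 4 sets, were Cdhr1 (0.97), Cacng5 (0.95), Dlx1 (0.95), Ptpro (0.94), Gng4 (0.94), Gpsm1 (0.93), Sp8 (0.93), Meis1 (0.92), Gcnt1 (0.91) and Map3k1 (0.91). Cdhr1 encodes a cadherin-related protein found in mitral and tufted cells of the olfactory bulb, and Sp8, Dlx1 and Meis1 are transcription factors of olfactory bulb interneurons, among other cells. Cdhr1 and Sp8 stand on the olfactory bulb list, and Trh, on the list for hypothalamus and septum, reached 0.90. Dlx1 stands on the cortical interneuron list, of which Reln reached 0.82, Gad1 0.79 and Slc32a1 0.62. The other measured genes of that list, Vip, Pvalb, Sst, Npy and Cnr1, lay at -0.44 to -0.10. Cdhr1 had a wide range of its own, from 8.21 to 11.39 in DID treated arrays and from 8.21 to 11.44 in DID controls. Slc17a6 correlated with Cdhr1 at 0.86 and with Sp8 at 0.81. The striatal list, in contrast, gave values of -0.46 to 0.22 with Calb2.

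CI control arrays 5 and 6 broke this pattern in part. They had the highest Calb2 and Slc17a6 of the CI set together with the lowest Cdhr1, Sp8, Dlx1 and Gng4. Meis1 (9.22 and 9.57, against at most 8.72) and Trh (9.98 and 9.74, against at most 8.87) were instead above every other CI value. Cacng5, Ptpro, Gpsm1, Gcnt1 and Map3k1 were inside the range of the other CI arrays. High Calb2 and Slc17a6 thus came with high Cdhr1 on the 77 arrays and with low Cdhr1 on these 2. The part of olfactory tissue, or of any other tissue next to the cut, in the spread of Calb2 was not tested.

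**Figure D4:**
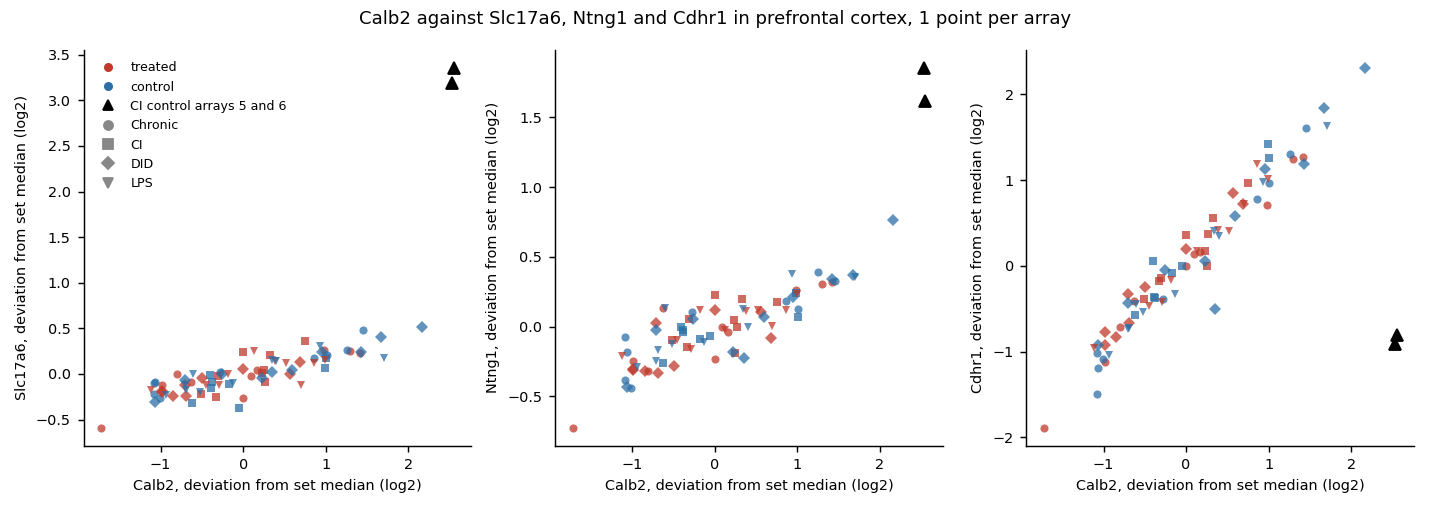
Deviation from the set median (log2) of Calb2 (x axis) against Slc17a6 (left), Ntng1 (middle) and Cdhr1 (right), 1 point per PFC array. Over 77 arrays Calb2 correlates at 0.84 with Slc17a6, 0.83 with Ntng1 and 0.97 with Cdhr1, and CI control arrays 5 and 6 (triangles) have high Calb2, Slc17a6 and Ntng1 but low Cdhr1.

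The genes most like the mean of the thalamic members depended on the same 2 arrays. Over 79 arrays they were Sncg (0.94), Igsf1 (0.94), Ddc (0.94), Slc29a4 (0.94), Slc6a9 (0.93), Arhgap24 (0.92), Bdh2 (0.92), Sparc (0.92), Car14 (0.92) and Rimkla (0.91). Least like it were Itpka (-0.97), Prkcb (-0.95), Enc1 (-0.95), Stx1a (-0.94) and Vxn (-0.94). Itpka, a kinase of inositol trisphosphate in forebrain dendritic spines, read 8.81 and 8.60 on arrays 5 and 6, against at least 11.32 on the other 18. Over 77 arrays the 10 highest were Fam126a (0.80), Cdhr1 (0.77), Tiam1 (0.75), Slc32a1 (0.75), Rerg (0.74), Scg2 (0.74), Myt1 (0.74), Pdlim3 (0.74), Nt5e (0.73) and Fhdc1 (0.73), and 0 of them were among the first 10. The 5 lowest over 77 arrays, Ccdc3 (-0.77), Spock1 (-0.76), Akap7 (-0.74), Hkdc1 (-0.74) and Lingo1 (-0.73), also shared 0 genes with the first 5. Itpka kept a value of -0.72.

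Among the lists of neighbouring tissue, striatal projection neuron genes had positive median differences in all 4 PFC sets. In CI treated PFC 12 of 12 were higher and 10 were DE (median 0.58), and 11 were higher and 7 DE without control arrays 5 and 6 (median 0.47). In Chronic 11 of 11 were higher with 3 DE (median 0.32), in LPS 10 of 11 with 4 DE (median 0.18), and in DID 9 of 11 with 0 DE at an unadjusted p under 0.05 in limma (median 0.08). None of them passed an adjusted p under 0.05 in any set. Over all probes 2.84% were DE and higher in CI (2.64% without the 2 arrays), 2.61% in Chronic, 4.61% in LPS and 1.84% in DID. The lists were written with earlier results of these data known. The striatal list holds Drd1, Drd2, Ppp1r1b, Pdyn and Pde10a, which the study had placed in its CI network, so its counts are a description. Oligodendrocyte genes were lower in 8 of 8 cases in CI with all controls in and higher in 8 of 8 without the 2 arrays, 3 of them DE (median -0.15 and 0.10).

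The liver contrasts took no part in the choice of genes and were tested. In liver Rgs16 responds to feeding in mice, and it was the 1 member with a spread well above the other probes. Rgs16 read 10.73 to 12.13 (median 11.52) in 9 LPS livers, against 9.45 to 11.68 (median 10.56) in 10 control livers. All 9 LPS values were above the control mean, although the groups overlapped. LPS treated array 1 was blank for Rgs16 and took no part in this comparison. The difference was 0.74 (SE 0.24), 1.67-fold, and limma gave it an unadjusted p of 0.0057 and an adjusted p of 0.18 over 9550 probes, so it did not pass. In the Chronic set Rgs16 read 10.54 to 13.09 (median 11.33) in ethanol livers, against 9.42 to 11.76 (median 11.10) in controls (difference 0.64, SE 0.32, limma adjusted p = 0.44). The CI and DID differences were 0.18 (SE 0.26) and 0.09 (SE 0.09), with limma adjusted p-values of 0.88 and 1.00. The differences between sets did not pass either, the nearest being DID minus LPS at -0.65 (SE 0.37, limma adjusted p = 0.74).

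Across the liver sets, which were normalized separately, Rgs16 of the DID mice stood alone. All 20 DID livers lay between 7.79 and 8.46, treated and control alike, whereas the 58 livers of the other sets with a value lay between 9.29 and 13.09. In DID 15.9% of probes had a lower mean than Rgs16, and in the other sets 85.6% to 85.7% did. Its SD within groups was 0.20 in DID and 0.59 to 0.78 elsewhere. The DID mice were also the ones killed in the dark phase, and set and light cycle cannot be told apart.

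**Figure D5:**
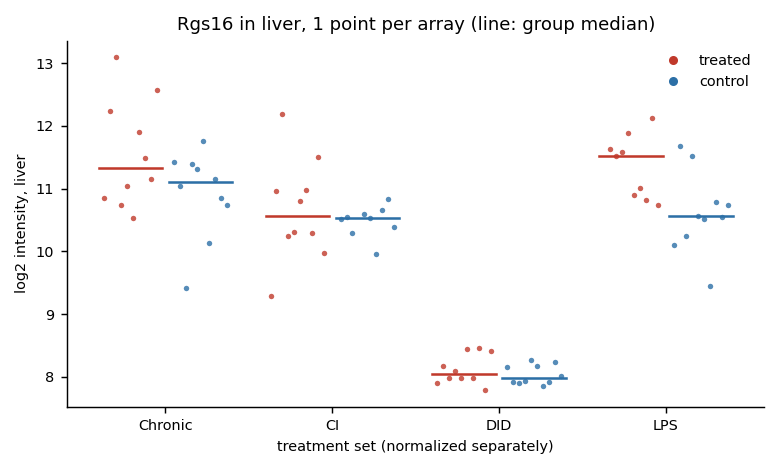
Log2 intensity of Rgs16 in liver, 1 point per array, by treatment set on the x axis (sets normalized separately), with treated arrays left of their controls and a line at each group's median. The 20 DID livers lie between 7.79 and 8.46 and all others with a value between 9.29 and 13.09.

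The other members measured in liver stayed level. Tcf7l2, Prkcd and Tnnt1 differed by -0.04 to 0.05 between treated and control livers in every set, and a second Tcf7l2 probe, measured in Chronic liver alone, by -0.06 (SE 0.04, limma adjusted p = 0.63). Over all 4 sets 0 of the 17 member probe contrasts had an adjusted p under 0.05 and 1, Rgs16 in LPS, had an unadjusted p under 0.05. The shares over all probes with an adjusted p under 0.05 were 1.5% in Chronic, 0.23% in CI, 0.0224% in DID and 0.555% in LPS, and those with an unadjusted p under 0.05 were 12.1%, 10.5%, 5.19% and 11.6%. As checks of the labelled tissue, the hepatocyte genes Cyp2e1 and Apoa2 lay at 14.72 to 15.61 and 14.74 to 15.57 in liver, while the single Alb probe read 8.35 to 10.52.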

How the data were processed

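Each array held RNA from 1 mouse. The deposited values are log2 intensities, which the authors made from Illumina MouseRef-8 bead signals with lumi (version not given in the sources used here) by variance stabilization and quantile normalization within each tissue and set, after a detection filter. They blanked outlying single values by Grubbs' test and removed 1 Chronic PFC control, and 0.49% to 0.62% of the values of a set were blank. Of 13983 probes, 13181 had 1 gene symbol and 802 none. The 159 bead-signal columns were not used, as no label ties them to a mouse.

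Treated and control arrays of each set were compared with limma 3.58.1 in R 4.3.3 (lmFit, eBayes, Benjamini-Hochberg over all probes of the set), tested on simulated data first. P-values set a difference of group means against the spread between arrays within groups, which eBayes moderates across probes. All 10 members are described, each by its probe with the highest mean over PFC arrays, and other genes named for single arrays were chosen after their values were seen. Spread, deviations and correlations were computed with numpy 2.4.6 and pandas 2.3.3, and plots drawn with matplotlib 3.10.9. Genes alike were the 10 highest and 5 lowest by Pearson correlation, with group means removed. The members and lists were chosen with earlier results of these data known. The comparisons without CI control arrays 5 and 6, and the likeness to Calb2, were chosen after seeing the data. The number of arrays limits the precision.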

Additional observations from a re-analysis of the deposited data

Results flagged for a closer look

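Of 114 groups of member values tested for an outlying array, 2 had one. The test took the gap between an array and its nearest neighbour in value. It therefore could not flag the 2 CI control PFC arrays that stood apart, since each lay close to the other. For Slc17a6 they read 13.29 and 13.12, and the highest other CI control read 10.10. Chance gives about 1 group in 20 in unfiltered values, but the authors had already blanked outlying values, so that rate does not hold here. Rgs16 had its highest Chronic treated PFC value on array 5, at 8.88, where the next highest array read 8.64. Ntng1 had its highest DID treated PFC value on array 10, at 9.95, where the next read 9.44, and this is the array on which Calb2 and Slc17a6 were blank. Their causes were not tested.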

How the results depend on the processing

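The alternatives were replicate blocks, array weights, probes with no blank value, 1 fit over the 4 sets and each array left out. For CI PFC, control arrays 5 and 6 were also left out together. All 192 alternative PFC group medians moved by less than 1 SD between arrays. This does not show that they are robust, as 1 array left out cannot move a group mean by 1 SD and 1 fit returns the same differences. All 406 liver member results stayed on their side of the adjusted threshold. At the unadjusted threshold Rgs16 in Chronic liver had a limma p of 0.058, and of 0.015 in 1 fit over the 4 sets. That SD holds CI control arrays 5 and 6 for the CI set, where leaving out both turned the thalamic median (-0.34) to 0.06 and the cortical median (0.05) to -0.17. With single arrays left out, the CI medians ran from -0.40 to -0.17 (thalamic) and from 0.0005 to 0.09 (cortical), and Ntng1 in DID was -0.10 without control array 8. Signs changed in 12 of 40 member differences with medians for means, in 6 of 40 with array weights and in 40 of 790 with 1 array left out. The replicate numbers were not taken to pair the samples, as same-numbered arrays did not all correlate over 0.1 in any set. The nearest was CI PFC (0.05 to 0.47, 9 of 10 pairs over 0.1, 4 of 10 treated arrays closest to their own number), with 6 of 9 pairs over 0.1 in Chronic PFC. With the number as a replicate block no member difference changed sign (Calb2 in DID was -0.94), Rgs16 in LPS liver was 0.68 (limma adjusted p = 0.16), and the probes passing the adjusted threshold numbered 1 in place of 13 for LPS PFC, and for the livers 81 in place of 151 (Chronic), 8 in place of 22 (CI), 1 in place of 2 (DID) and 35 in place of 53 (LPS). Array weights gave 271 for Chronic and 49 for CI livers. A single fit gave 35, 10 and 0 for Chronic, CI and LPS PFC, and 14 and 10 for CI and DID livers. Probes with no blank value gave 7 for LPS PFC and 43, 9 and 32 for Chronic, CI and LPS livers, where fewer probes were tested. The causes of the other changes were not tested. Members near the lowest values of a set (Tbr1, Fezf2 and Neurod2 on CI control arrays 5 and 6) may understate a difference.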
